A study of Homo sapiens with 5 samples.

Results

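The mitotic spindle separates the chromosomes, and cytokinesis then divides the cell between them. The 10 genes described here encode proteins of these steps. Of them, 5 act mainly in the assembly of the spindle and at its poles (TPX2, ASPM, NUSAP1, HMMR and SPAG5), and 5 in the central spindle, the cleavage furrow and the midbody (PRC1, ECT2, ANLN, RACGAP1 and CIT). They were chosen by symbol, as a list of known genes, from the 26485 genes of the count table, and 10 of 10 were found there. The choice was made with earlier results of these data known, so that the share of these genes called is a description. RNA-seq was performed on 5 libraries of poly-A RNA from wild-type RPE1, an established human line that derives from the pigment epithelium of the retina. Of the libraries, 2 came from cells kept in DMSO, the solvent of the drug, 2 from cells given 0.2 μM doxorubicin and 1 from cells given 0.34 μM doxorubicin, each for 18 h. Doxorubicin is an anticancer drug that intercalates into DNA and inhibits topoisomerase II. The concentrations are those of the sample titles, and the treatment description in the labels gives higher values. The higher dose has a single library, and the labels do not say whether libraries of one condition came from separate cultures (the study calls them biological replicates), so that p-values measure the spread between these libraries.

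Many, though not all, genes of spindle assembly and cytokinesis are transcribed late in the cell cycle, from S phase to mitosis. The mRNAs and proteins of many of these genes are low in cells that do not divide. Many of their promoters carry a short element, the cell cycle genes homology region (CHR), through which complexes of the MuvB core bind. As part of the DREAM repressor the MuvB core holds the genes silent, and with B-MYB and FOXM1 it activates them before mitosis. Many of these promoters also hold CCAAT boxes, the sites of the factor NF-Y.

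The promoter sequences are shown first, as a description, and a link between them and the changes after doxorubicin was not tested. Of the 10 genes, 8 had a promoter window in RefSeq (GRCh38.p14), from 250 bases before to 50 bases after the annotated gene start, and TPX2 and RACGAP1 had none. TTTGAA, the common form of the CHR, was found on either strand in 8 of 8 windows, against 15.4% of 27305 windows of all genes. TTCGAA, the other form searched, was found in 0 of 8, against 1.45%. CCAAT was found on either strand in 6 of 8, against 35.7%. Windows with a CHR form and a CCAAT box numbered 6 of 8, against 6.58% of all windows. Matches of the motifs did not overlap each other, except for a pair of CCAAT matches on opposite strands in HMMR. These matches describe letters and not binding. For comparison, the TTTGAA match nearest to the gene start of each gene is shown with its flanks, 5′ to 3′ on the strand of the gene. Capitals mark TTTGAA or its reverse complement TTCAAA.
ASPM: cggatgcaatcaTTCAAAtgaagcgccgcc
NUSAP1: tggcgccagggaTTTGAAccgcgctgacga
HMMR: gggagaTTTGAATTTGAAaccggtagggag
SPAG5: gcgcagagcaggTTCAAAcacagacggcgg
PRC1: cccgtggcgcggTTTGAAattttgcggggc
ECT2: agcagcttagttTTTGAAtcggttgtgg
ANLN: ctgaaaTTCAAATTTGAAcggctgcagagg
CIT: ccgttcctcgggTTCAAAcgcggcggcggg

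The match lay 20 bases before the start in PRC1 and ANLN, 22 in HMMR and 113 in ASPM. It lay 3 bases after the start in SPAG5, 10 in CIT, 13 in NUSAP1 and 34 in ECT2. In HMMR (chr5:163460598-163460627) the TTTGAA match occurred as a direct repeat of 2 copies, and in ANLN (chr7:36389830-36389859) as 2 copies head to head. ANLN and SPAG5 were the windows without a CCAAT box.

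The whole windows are given for ASPM and ECT2, the genes with the largest and the smallest fall, with TTTGAA and CCAAT matches of either strand in capitals. The window of ASPM is chr1:197146620-197146919 on the minus strand and holds 1 TTTGAA and 4 CCAAT matches. The window of ECT2 is chr3:172750476-172750775 on the plus strand and holds 2 TTTGAA and 3 CCAAT matches.
ASPM: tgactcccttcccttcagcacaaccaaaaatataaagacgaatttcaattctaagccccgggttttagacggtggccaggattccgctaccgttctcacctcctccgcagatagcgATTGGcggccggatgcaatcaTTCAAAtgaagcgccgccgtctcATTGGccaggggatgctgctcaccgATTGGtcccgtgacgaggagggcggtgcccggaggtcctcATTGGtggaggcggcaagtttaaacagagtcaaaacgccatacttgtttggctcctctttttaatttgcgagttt
ECT2: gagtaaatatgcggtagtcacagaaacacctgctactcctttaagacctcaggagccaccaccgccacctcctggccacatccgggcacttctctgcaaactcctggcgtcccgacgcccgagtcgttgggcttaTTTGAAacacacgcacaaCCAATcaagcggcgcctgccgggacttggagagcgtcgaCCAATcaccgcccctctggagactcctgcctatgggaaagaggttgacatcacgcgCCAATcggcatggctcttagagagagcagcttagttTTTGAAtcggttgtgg

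**Figure D1:**
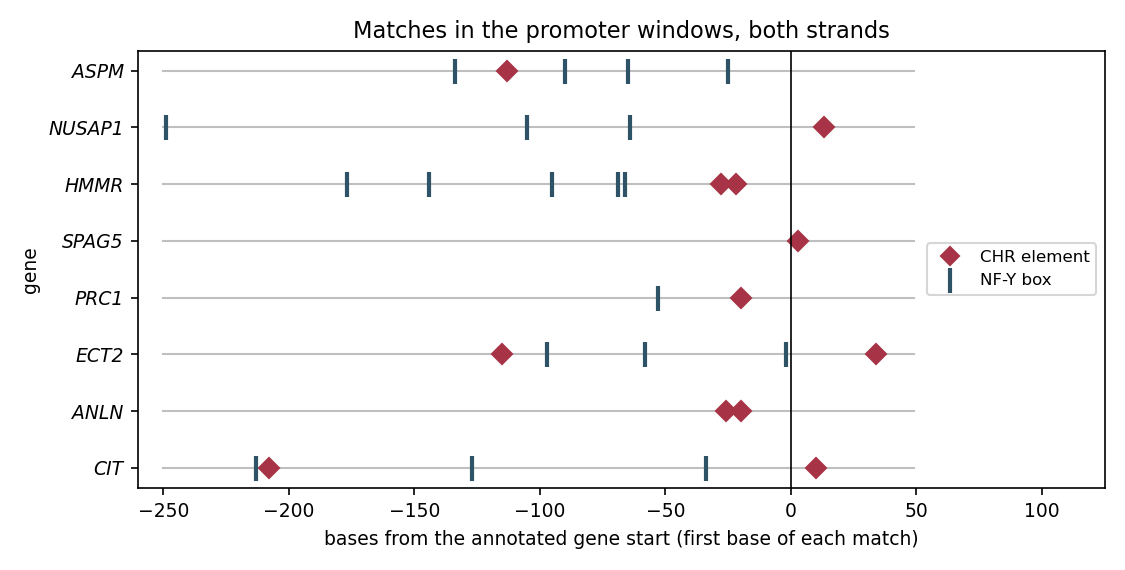
Matches to the CHR element (diamonds) and to the NF-Y box (bars) in the promoter windows of 8 of the genes, by distance in bases from the annotated gene start (vertical line). All 8 windows hold a TTTGAA match, against 15.4% of all windows, and 6 hold a CCAAT match, against 35.7%. The matches describe letters and not binding.

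The mRNA levels of all 10 genes fell after doxorubicin. In bulk RNA, a change in the share of cells at a stage of the cell cycle and a change in the mRNA per cell cannot be told apart. Levels are given in CPM, counts per 1000000 counts of the library after TMM normalization, and fold changes as log2 of doxorubicin over DMSO, with their standard errors (SE). The sum over the 10 genes was 2373 and 2382 CPM in the DMSO libraries, 242 and 279 CPM at 0.2 μM and 188 CPM at 0.34 μM. The mean of 2378 ± 6.88 CPM (SD, n = 2) in DMSO was thus 10.1 times the mean of 236 ± 46.0 CPM (SD, n = 3) in doxorubicin. The doxorubicin SD spans both doses. The sums in DMSO were closer than the levels of each single gene but ASPM. The single genes differed between these libraries by a median factor of 1.24, in both directions. For each gene, the lowest DMSO library was between 4.62 and 14.96 times the highest doxorubicin library, so that the groups did not overlap in 10 of 10 genes. Every doxorubicin library lay below every DMSO library in 23.4% of the 14187 genes tested. By the quasi-likelihood test of edgeR, with p-values adjusted over all genes tested (Benjamini-Hochberg), 10 of 10 genes were called lower at an adjusted p of 0.01, as were 2.73% of all genes tested. Their adjusted p-values from edgeR were between 0.000691 and 0.00163. The median log2 fold change was -3.38, against 0.013 over all genes tested. The lowest count of any of the genes in any library was 155 (HMMR), so that each passed the filter on low counts in both groups. The calls depended on the DMSO libraries. Without DMSO replicate 2, 5 of 10 genes were called, as were 0.321% of the genes tested, and ASPM, NUSAP1, HMMR, ECT2 and CIT had adjusted p-values between 0.0110 and 0.0156 from edgeR. Without DMSO replicate 1, 9 were called, against 1.26% of the genes tested, and HMMR had 0.01005, just above the threshold. With any of the doxorubicin libraries left out, 10 were called, against 0.974% to 1.04% of the genes tested.

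**Figure D2:**
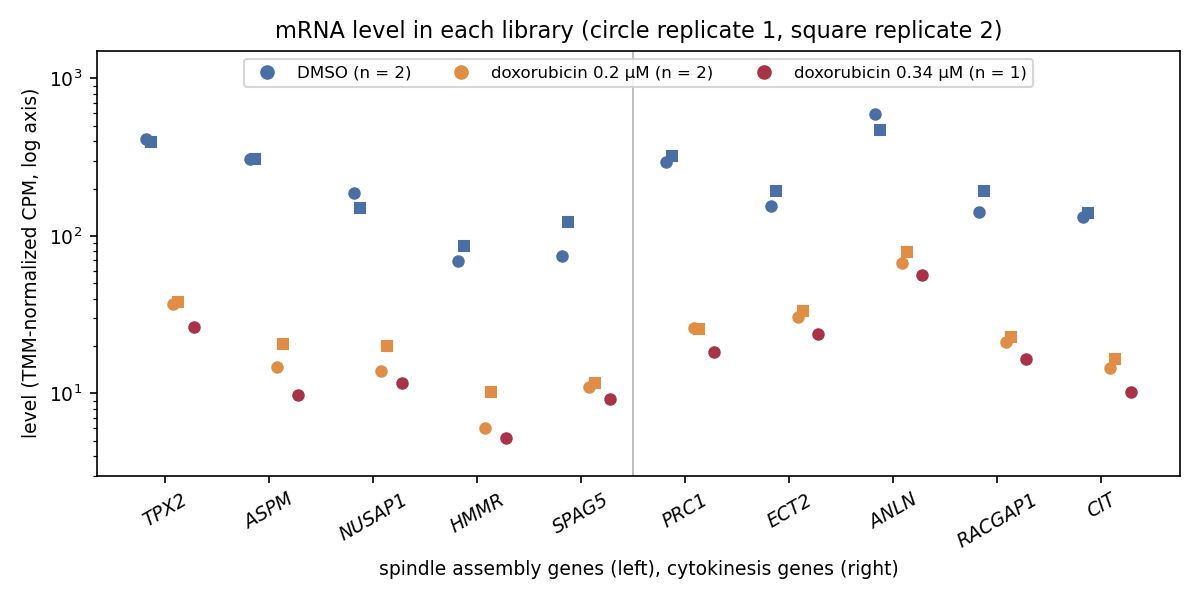
Level of each gene in each library in TMM-normalized CPM on a log axis, by condition (DMSO n = 2, 0.2 μM n = 2, 0.34 μM n = 1). The DMSO libraries lie above every doxorubicin library for each of the 10 genes, by a factor of at least 4.62.

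Among the spindle assembly genes, TPX2 (chr20:31739290-31801800), which nucleates microtubules around chromosomes and activates Aurora A, had 415 and 397 CPM in DMSO. After doxorubicin it had 36.9 and 38.3 CPM at 0.2 μM and 26.3 CPM at 0.34 μM. The DMSO libraries of TPX2 differed by a factor of only 1.04, and the log2 fold change was -3.59 (SE 0.20, edgeR adjusted p = 0.000691). ASPM (chr1:197084127-197146669) focuses microtubule minus ends at the spindle poles. Its levels in DMSO were nearly equal, at 310.2 and 309.8 CPM. They were 14.8 and 20.7 CPM at 0.2 μM and 9.81 CPM at 0.34 μM. ASPM thus fell to 4.87% of its DMSO mean, the deepest fall of the 10 genes, with a log2 fold change of -4.36 (SE 0.31, edgeR adjusted p = 0.000835). By size of the fall it stood at rank 12 of all genes tested. It was also the gene with the widest spread after doxorubicin, where its highest library was 2.11 times its lowest.

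NUSAP1 (chr15:41332881-41381046), which bundles spindle microtubules near the chromosomes, had 187 and 151 CPM in DMSO. It had 13.8 and 20.1 CPM at 0.2 μM and 11.6 CPM at 0.34 μM. Its log2 fold change was -3.48 (SE 0.26, edgeR adjusted p = 0.00093). HMMR (chr5:163460632-163491941), a receptor of hyaluronan that inside the cell works in spindle assembly, was the gene with the lowest counts. It had 69.3 and 86.6 CPM in DMSO, 5.99 and 10.3 CPM at 0.2 μM and 5.21 CPM at 0.34 μM, a log2 fold change of -3.45 (SE 0.31, edgeR adjusted p = 0.00163). Of the 10 genes, HMMR thus had the largest p, and its 0.2 μM libraries lay furthest apart. SPAG5 (chr17:28577574-28599025), also known as astrin, stabilizes kinetochore fibers and spindle poles. It had 75.1 and 123 CPM in DMSO, 11.02 and 11.6 CPM at 0.2 μM and 9.20 CPM at 0.34 μM. Here the spread lay in the controls, which differed by a factor of 1.63, while the doxorubicin libraries were within a factor of 1.26. The log2 fold change of SPAG5 was -3.22 (SE 0.24, edgeR adjusted p = 0.000984). It moved to -3.54 with the lower control left out (replicate 1) and to -2.84 with the higher one left out.

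Among the cytokinesis genes, PRC1 (chr15:90966040-90994535), which crosslinks antiparallel microtubules in the central spindle, had 293 and 321 CPM in DMSO. It had 25.9 and 25.5 CPM at 0.2 μM and 18.3 CPM at 0.34 μM. Libraries of one condition were close for PRC1, and it had the smallest p of the 10 genes (log2 fold change -3.72, SE 0.20, edgeR adjusted p = 0.000691), at rank 8 by p of all genes tested. RACGAP1 (chr12:49989162-50033440), the GTPase-activating subunit of centralspindlin, had 143 and 192 CPM in DMSO. It had 21.2 and 22.8 CPM at 0.2 μM and 16.6 CPM at 0.34 μM, a log2 fold change of -3.05 (SE 0.21, edgeR adjusted p = 0.000768). ECT2 (chr3:172750726-172829265) is the exchange factor that RACGAP1 recruits to activate the GTPase RhoA at the cell equator. It had 155 and 194 CPM in DMSO, 30.4 and 33.6 CPM at 0.2 μM and 23.97 CPM at 0.34 μM. With 16.8% of its DMSO mean left, ECT2 had the smallest fall of the 10 genes, a log2 fold change of -2.57 (SE 0.19, edgeR adjusted p = 0.000972), and stood at rank 164 of all genes tested by size.

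ANLN (chr7:36389862-36453791) encodes anillin, which links RhoA, actin, myosin and septins in the contractile ring. It was the most abundant of the 10 mRNAs in counts, with 593 and 468 CPM in DMSO. After doxorubicin it had 67.7 and 79.4 CPM at 0.2 μM and 56.3 CPM at 0.34 μM. Its log2 fold change was -2.97 (SE 0.20, edgeR adjusted p = 0.000768). Its share of the summed CPM of the 10 genes was 22.3% in DMSO and 28.8% in doxorubicin. CIT (chr12:119685791-119877320) encodes citron kinase, a scaffold of the midbody that binds RhoA, anillin and KIF14. It had 133 and 140 CPM in DMSO, 14.5 and 16.6 CPM at 0.2 μM and 10.3 CPM at 0.34 μM, a log2 fold change of -3.31 (SE 0.22, edgeR adjusted p = 0.000747). Its profile over the 5 libraries was the closest to the mean profile of the 10 genes, with a root mean square difference of 0.050 on the log2 scale, against 0.53 for ASPM, the furthest.

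The falls of neighbouring genes in this order mostly differed by less than their standard errors. From the deepest fall the order was ASPM, PRC1, TPX2, NUSAP1, HMMR, CIT, SPAG5, RACGAP1, ANLN and ECT2. The steps from PRC1 to ANLN were between 0.028 and 0.17 on the log2 scale and between 0.089 and 0.69 of the larger standard error. The steps at the ends were wider, with 0.64 from ASPM to PRC1 (2.07 standard errors) and 0.39 from ANLN to ECT2 (1.94 standard errors). The median log2 fold change was -3.48 for the 5 spindle assembly genes, which ranged from -4.36 to -3.22. It was -3.05 for the 5 cytokinesis genes, which ranged from -3.72 to -2.57. Thus the ranges overlapped, and the difference between the groups was not tested. Each of the 10 falls was larger than the median of -2.12 over the 388 genes called lower.

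**Figure D3:**
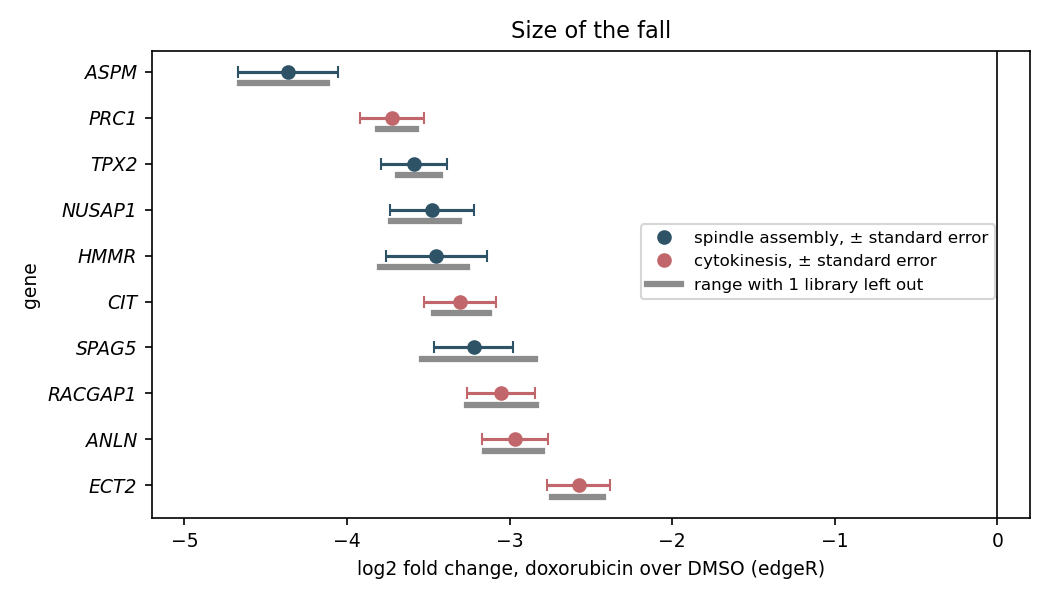
Log2 fold change of each gene, doxorubicin over DMSO, with its standard error (points and bars), and the range of the value with each of the 5 libraries left out in turn (grey). ASPM lies furthest from 0 at -4.36 and ECT2 nearest at -2.57, and none of the ranges reaches 0.

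Per kilobase of the MANE Select transcript, the levels in DMSO were highest for TPX2 (117 ± 3.54 CPM per kb, SD, n = 2) and ANLN (112 ± 18.6), followed by PRC1 (99.95 ± 6.56). NUSAP1 (74.6 ± 11.3), RACGAP1 (53.9 ± 11.3) and ECT2 (42.2 ± 6.62) lay in the middle. ASPM (28.5 ± 0.023), SPAG5 (26.1 ± 8.86) and HMMR (25.8 ± 4.05) followed, and CIT was lowest (15.6 ± 0.55). Library values overlapped between the neighbours TPX2 and ANLN, ANLN and PRC1, RACGAP1 and ECT2, ASPM and SPAG5, and SPAG5 and HMMR, and not between the other neighbours in this order. In doxorubicin the highest level per kilobase was that of ANLN (14.3 ± 2.44 CPM per kb, SD, n = 3), followed by TPX2 (9.74 ± 1.90), PRC1 (7.57 ± 1.39), ECT2 (7.09 ± 1.18), NUSAP1 (6.71 ± 1.95) and RACGAP1 (6.50 ± 1.04). SPAG5 (2.80 ± 0.33) and HMMR (2.37 ± 0.90) followed. CIT (1.58 ± 0.37) and ASPM (1.39 ± 0.50) were lowest. Here all neighbours in the order overlapped, except ANLN with TPX2 and RACGAP1 with SPAG5. ASPM, with a transcript of 10863 bases, thus moved from above SPAG5, HMMR and CIT by the mean to the last place, although in replicate 2 of 0.2 μM it lay just above CIT.

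The libraries of one condition differed from gene to gene and not in 1 direction for the controls. Of the 10 genes, 6 were higher in DMSO replicate 2, with the largest log2 differences for SPAG5 (0.71) and RACGAP1 (0.43). The others were higher in replicate 1, led by ANLN (log2 difference -0.34, replicate 2 minus replicate 1) and NUSAP1 (-0.31). The median absolute log2 difference of the 10 genes was 0.32, and over all genes tested it was 0.36. Between the 0.2 μM libraries 9 of the 10 genes were higher in replicate 2, by up to 0.77 (HMMR), and PRC1 differed by -0.026.

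Between the doses, each of the 10 genes was lower in the 0.34 μM library than in both 0.2 μM libraries, as were 28.9% of all genes tested. The largest difference was that of ASPM, which had 3.16% of its DMSO mean left at 0.34 μM and 4.78% and 6.68% at 0.2 μM. Its log2 difference was -0.86 (SE 0.31, edgeR unadjusted p = 0.0272), followed by HMMR with -0.64 (SE 0.40) and CIT with -0.60 (SE 0.27). The smallest was that of SPAG5, with -0.30 (SE 0.36). The size and order of these differences also depend on the 0.2 μM library taken, since 9 of the 10 genes were higher in replicate 2. HMMR had 5.21 CPM at 0.34 μM, against 5.99 CPM in replicate 1 and 10.3 CPM in replicate 2 of 0.2 μM. A difference of dose and one of replicate cannot be told apart in these values. The median log2 difference was -0.50 over the 10 genes and -0.017 over all genes tested. None of the 10 differences passed the threshold in edgeR's quasi-likelihood test, where the adjusted p-values were all 1.00 after rounding, nor did DESeq2 or limma voom call any of the 10. Of all genes tested, 0% (0 genes) were called by edgeR in this comparison, and 22 genes had an unadjusted p under 0.05, ASPM among them. Far fewer genes lay under 0.05 than chance alone would put there among 14187 tests. The test of the doses thus gave p-values that run high, and cannot decide whether the doses differ, for ASPM or any other gene. These p-values rest on the spread within the DMSO pair and the 0.2 μM pair, since the 0.34 μM library has no replicate. That library was also the deepest, with 36725345 counts.

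**Figure D4:**
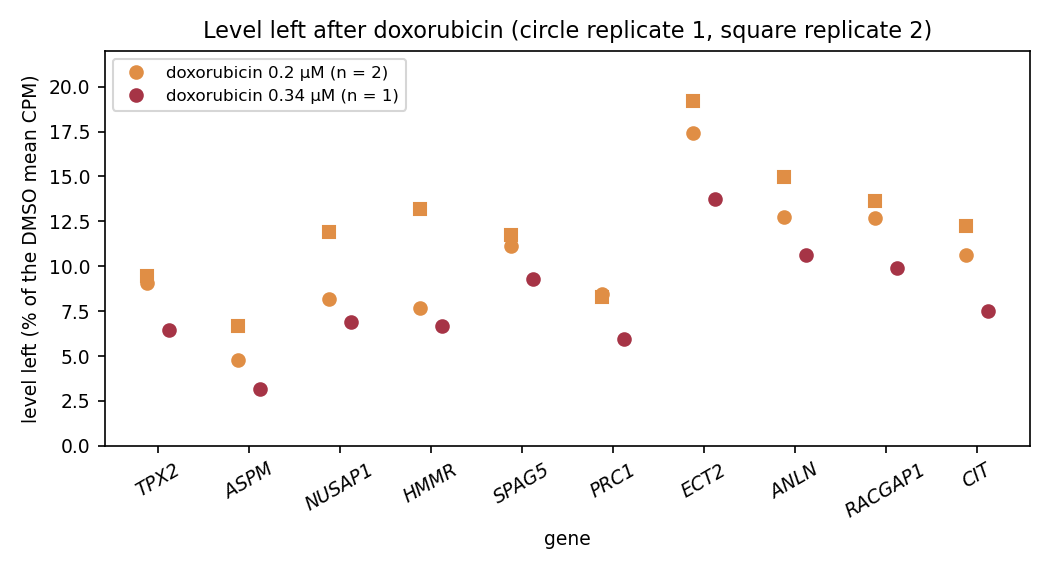
Level of each gene left in each doxorubicin library, in percent of its DMSO mean CPM. The 0.34 μM library (n = 1) lies below both 0.2 μM libraries for each of the 10 genes, from 3.16% for ASPM to 13.7% for ECT2.

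The other genes of spindle and division were then compared in 4 lists. These were compiled from general knowledge, but with earlier results of these data known, so that their shares are a description. Of 83 genes, 83 were tested, and 32 were called lower and 0 higher, against 2.73% and 1.29% of all genes tested. The share differed between the lists. Of 9 genes of the central spindle and the chromosomal passenger complex 9 were called lower, and their median log2 fold change was -3.80. Of 37 spindle assembly factors 20 were called lower (median -1.33), of 19 contractile ring genes 2 (median -0.28), and of 18 abscission genes 1 (median 0.16). The count of 32 was 14 without DMSO replicate 2 and 21 without replicate 2 of 0.2 μM doxorubicin. With each library left out in turn, between 7 and 9 of the central spindle genes and between 7 and 14 of the spindle assembly factors were called, with the lowest counts without DMSO replicate 2. At most 1 contractile ring gene and at most 1 abscission gene was called in any of these fits.

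**Figure D5:**
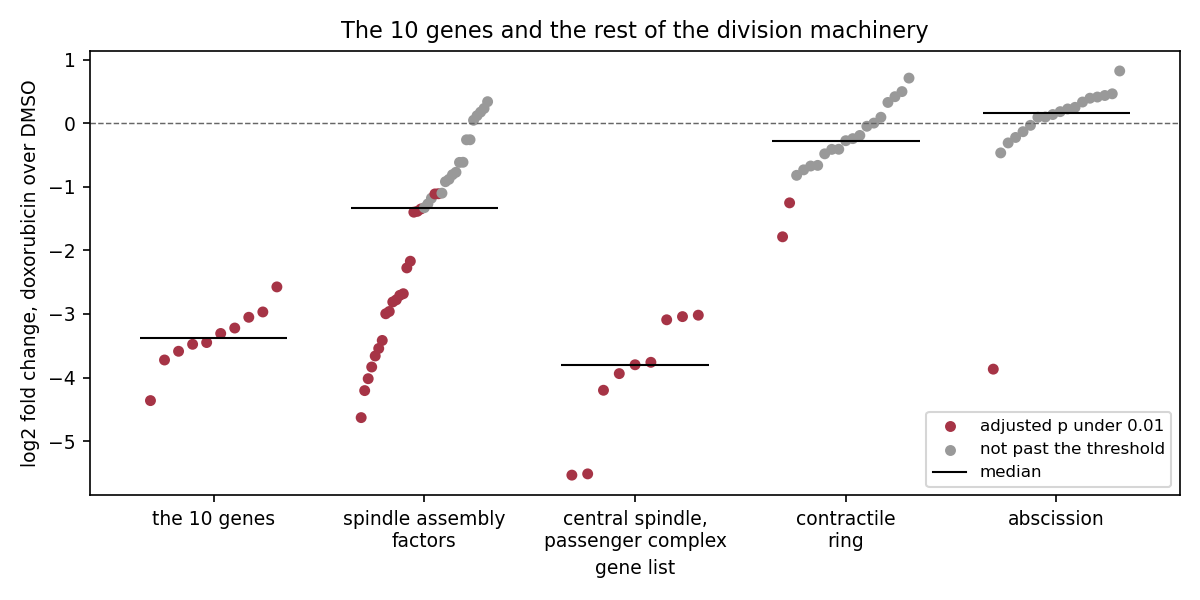
Log2 fold change, doxorubicin over DMSO, of the 10 genes and of the genes of 4 lists, with the median of each list (line). Red points passed the adjusted p of 0.01. The central spindle list (median -3.80) lies with the 10 genes (median -3.38), and the abscission list (median 0.16) lies around 0 but for CEP55 at -3.87.

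Direct partners of the proteins moved as follows. KIF23, the kinesin subunit of centralspindlin, had 184 and 167 CPM in DMSO and 22.4, 23.7 and 17.9 CPM in doxorubicin, the last at 0.34 μM. It kept 12.1% of its DMSO mean, as did its partner RACGAP1 (12.1%). KIF4A and KIF20A, kinesins of the central spindle that bind PRC1 or work beside it, kept 7.20% and 2.18%, and PRC1 7.57%. KIF14, a partner of CIT and PRC1, kept 7.41%, and CIT 10.1%. AURKA, the kinase that TPX2 activates, kept 7.92%, and TPX2 8.33%. KNSTRN, which works with SPAG5 at kinetochores, kept 15.3%, and SPAG5 10.7%. Each of these partners was called lower by edgeR, with log2 fold changes between -5.52 (KIF20A) and -2.71 (KNSTRN). RHOA, the GTPase that ECT2 activates, is used in all stages of the cell cycle. It had 905 and 839 CPM in DMSO and 772, 711 and 727 CPM in doxorubicin. This difference was not called (log2 fold change -0.24, SE 0.15, edgeR adjusted p = 0.319).

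Within the lists, the smallest p-values of the spindle assembly factors were those of DLGAP5, a microtubule-binding protein of kinetochore fibers (log2 fold change -4.63), and of the kinesins KIF15 (-4.21) and KIFC1 (-4.02). The largest positive values in that list, CLASP1 with 0.34 and NUMA1 with 0.23, did not pass the threshold. In the central spindle list the smallest were those of PLK1, KIF20A and KIF23, with log2 fold changes of -5.53, -5.52 and -3.04. The contractile ring genes called lower were DIAPH3, a formin that builds actin filaments (-1.79), and MYH10, the heavy chain of nonmuscle myosin IIB (-1.25). Neither passed without DMSO replicate 1, without DMSO replicate 2 or without replicate 2 of 0.2 μM doxorubicin. The septin SEPTIN10, with -0.73, did not pass (adjusted p = 0.0172 from edgeR). Nor did the largest positive values, SEPTIN11 with 0.71 (adjusted p = 0.0671 from edgeR) and MYH9, the heavy chain of nonmuscle myosin IIA, with 0.50 (adjusted p = 0.336 from edgeR). In the abscission list CEP55, which recruits the ESCRT machinery to the midbody, fell from 271 and 230 CPM to 17.3 and 22.7 CPM at 0.2 μM and 11.5 CPM at 0.34 μM (log2 fold change -3.87, SE 0.29, edgeR adjusted p = 0.000931). It was not called without DMSO replicate 2. The ESCRT subunits CHMP4C and CHMP6 had the largest positive values of that list, 0.82 and 0.46, and SPAST, which severs microtubules, had -0.47, and none of these passed. DESeq2 called more contractile ring genes, 5 lower (SEPTIN10, ROCK2 and DIAPH1 beside DIAPH3 and MYH10) and 1 higher (SEPTIN11), and it called CHMP4C higher.

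Of the genes outside the 10, the profiles over the 5 libraries most like their mean profile were those of STIL, ARHGAP11A, SGOL2, UBE2C and CKAP2L. Their root mean square differences were 0.075, 0.082, 0.097, 0.11 and 0.12 on the log2 scale, and their log2 fold changes lay between -3.54 (CKAP2L) and -3.35 (STIL). STIL, a centriole duplication factor, had 44.1 and 47.3 CPM in DMSO and 4.79, 5.53 and 3.14 CPM in doxorubicin. UBE2C is a ubiquitin-conjugating enzyme of the anaphase-promoting complex, and SGOL2 protects cohesin at centromeres.

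Of 8 genes that overlap the 10 in the annotation, 4 were in the count table. PRC1-AS1, which lies within PRC1, had between 1 and 14 counts per library, against at least 613 for PRC1. HMMR-AS1 had at most 1 count and MIR1178, within CIT, 0 counts in each library. MATCAP2, listed under an older symbol, overlaps ANLN over 496 bases. It had between 77 and 200 counts, and its log2 fold change of -0.15 did not pass the threshold (adjusted p = 0.830 from edgeR). A pseudogene within ASPM and 3 small annotated genes within ECT2 were not analysed here, and neither TPX2, NUSAP1, SPAG5 nor RACGAP1 overlaps another annotated gene.

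Total counts on genes were between 23773061 and 36725345 per library. Of 10 marker genes of retinal pigment epithelium, 4 passed the filter on low counts. MITF had between 743 and 1503 counts and OTX2 between 601 and 887, and neither passed the threshold. BEST1 was low in DMSO (26 and 14 counts) and higher after the drug (86, 30 and 142 counts), with a log2 fold change of 1.88 that missed the threshold (edgeR adjusted p = 0.0823). PMEL likewise had 7 and 5 counts without the drug and 22, 32 and 46 with it, and its log2 fold change of 2.29 missed the threshold (edgeR adjusted p = 0.0264). RPE65, RLBP1, TYR, TYRP1, DCT and TTR had under 10 counts in every library. The label of the cell line thus matched its markers only in part. VIM had at least 113302 counts, and CDH1 and EPCAM had at most 4. The summed level of 4 epithelial markers, almost wholly KRT8 and KRT18, was 609 to 683 CPM (before TMM normalization) in DMSO and 981 to 1147 CPM in doxorubicin, and its part in the falls was not tested. Markers of blood, endothelial and liver cells (PTPRC, PECAM1, CDH5 and ALB) summed to 0.374 to 2.90 CPM in DMSO and 1.36 to 5.76 CPM in doxorubicin.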

How the data were processed

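Gene expression was measured by RNA-seq in 5 libraries of RPE1 cells, described in the report. The authors mapped paired-end reads to hg38 with STAR, counted them per gene with Rsubread (featureCounts in the labels) and the iGenomes annotation, and deposited raw counts, with no normalization. Software versions and the strand setting of the counting were not stated in the sources used. A second deposited table, with the authors' own fold changes and p-values, was not used.

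The whole count table was taken into edgeR 4.0.16 under R 4.3.3. TMM normalization was used, and the default filter on low counts (minimum count 10, minimum total 15) kept 14187 of 26485 genes. The 3 doxorubicin libraries were pooled against the 2 DMSO libraries, without covariates, as in the study's methods. The study's threshold, an adjusted p of 0.01, was applied to the quasi-likelihood test, whereas the study used DESeq2. Standard errors were obtained from the size of the log2 fold change and the F statistic, as their ratio with the root of F. The doses were compared by a contrast in a fit of 3 conditions. Transcript lengths are those of MANE Select transcripts in GENCODE v44, and gene positions are those of RefSeq on GRCh38.p14.

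The 10 genes and the lists were chosen with earlier results of these data known. Named beside the 10 are the genes overlapping them, fixed partners, the 3 smallest p-values and 2 largest positive changes of each list, and the 5 genes with the most similar centred log2 CPM (prior count 2). Alternatives were DESeq2 1.42.0, limma voom 3.58.1, other size factors, no filter, other dose groupings, each library left out, a replicate block and a threshold of 0.05. The pipeline was tested on simulated data. The chi-square of the counts per degree of freedom was 117 within the DMSO pair and 75.3 within the 0.2 μM pair, so that these libraries were not copies. The depth limits precision only for low counts, and no counting interval was needed for the 10 genes.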

Additional observations from a re-analysis of the deposited data

How the results depend on the processing

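Each of the 10 falls kept its direction under 11 alternatives, and 104 of 110 values passed the threshold. The 6 that did not came from leaving out a DMSO library. The number of the 10 genes called lower was 10 under every alternative but these, and between 5 and 10 when single libraries were left out. Their median log2 fold change was -3.19 with the 0.2 μM libraries only (the same fit as leaving out the 0.34 μM library), -3.22 with the replicate block, and between -3.57 and -3.19 when single libraries were left out. Of all genes tested, 571 were called, and this count was 2073 with DESeq2, 1020 without the filter, 178 with the 0.2 μM libraries only, 323 in the fit of 3 conditions, 1411 with the replicate block, 1927 at the threshold of 0.05, and between 49 and 215 when single libraries were left out. The count of list genes called, 32, was between 14 and 25 when single libraries were left out, 26 in the fit of 3 conditions, and between 31 and 44 under the other alternatives, the highest with DESeq2. In the comparison of the doses, 0 of the 10 genes were called under any alternative. Leaving out a library there was added after the data were seen. With 1 library left in an arm, that library is assumed to vary like the other group.

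The labels number only the second library of each pair, so the block took the others as replicate 1, and the 0.34 μM library had a level of its own and so did not bear on that fold change. Deviations of same-numbered libraries from their pair means correlated across 14187 genes with r = 0.528. These libraries thus shared part of their differences, which the main fit did not model. With 2 pairs this does not show that they were paired. In MYL9, for example, replicate 1 had 905 CPM in DMSO and 923 CPM at 0.2 μM, and replicate 2 had 210 and 304 CPM. The 0.34 μM library, with 871 CPM, lay with replicate 1 there. How many genes did so was not counted, and its bearing on the comparison of the doses was not tested. The block changed no call of the 10 genes.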
